A study of Mus musculus with 3 samples.

Results

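The calcium release and pump genes are 10 genes of the machinery with which pancreatic exocrine cells raise and lower cytosolic calcium. They were given by name: the inositol trisphosphate (IP3) receptors Itpr1, Itpr2 and Itpr3, the pumps Atp2a2, Atp2a3, Atp2b1, Atp2b4 and Atp2c2, and the store-operated entry genes Orai1 and Stim1. All 10 were on the array, out of 21150 genes named there, and they were read by 17 probes, 1 probe each for 5 genes and more than 1 for the other 5. Each array was hybridised with RNA of cells cut by laser microdissection from frozen pancreas of wild-type mice 48 h after caerulein pancreatitis: ADM cells (acinar-to-ductal metaplasia, in which acinar cells take on duct-like features), duct cells or acinar cells. The study used 3 mice and 1 array per cell type, the labels leave it unsaid whether an array held cells of 1 mouse or of several, and no untreated pancreas was analysed here. With 1 array per cell type no difference between cell types has a replicate check, so no test was possible and no p-value is given. Per the design text, the profiles of the dissected cells were to be compared with each other.

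In an acinar cell, cholecystokinin or acetylcholine activates phospholipase C, which forms IP3. IP3 opens its receptors in the endoplasmic reticulum (ER), the released calcium triggers zymogen granule exocytosis, and pumps return the calcium to the ER or push it out of the cell. When the ER store empties, the ER sensor Stim1 opens the plasma membrane channel Orai1 so that calcium flows back in. Caerulein, an analogue of cholecystokinin, drives this system to excess, and sustained calcium elevation is an early step of caerulein pancreatitis. Duct cells use IP3 receptors as well, where calcium release drives chloride, bicarbonate and fluid secretion.

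Levels are given as log2 signal minus the array's 75th percentile, so that 0 is that percentile, and a difference of 1 is 2-fold. A signal that the scanner software did not mark as well above background gives only a bound, written "at least". Levels of different probes are not on a common scale and were not set against each other. Marker sums add linear levels of several probes, so bright probes weigh most in them. The 75th-percentile signal was 72.2 intensity units on the ADM array, 95.7 on duct and 35.2 on acinar, and 27658, 27841 and 22635 of 55664 probes were well above background, so the acinar array was the dimmest. Where a probe was spotted repeatedly and well above background, the median SD over its spots was 0.104 on ADM, 0.087 on duct and 0.115 on acinar in log2 units. Dim repeated probes were left out of these medians (246, 250 and 184 probes counted). The scanner's own error for a measured difference of a member probe lay between 0.20 and 0.34. These errors cover spotting and scanning, not animals or dissection. Probes of the same gene differed far more: between the brightest and second-brightest probe of a gene, the median gap in the difference was 0.78 for ADM against acinar (1901 genes), 0.98 for duct against acinar (1830 genes) and 0.93 for ADM against duct (2292 genes).

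The labels were set beside markers of each cell type. All 11 acinar markers were well above background on all 3 arrays, and their summed linear level was 7721 on ADM, 1440 on duct and 26677 on acinar, in units of each array's 75th percentile. Of 11 duct markers, 9 were well above background on ADM, 10 on duct and 8 on acinar, with sums of 45.1, 133 and 19.7. Cftr, a defining chloride channel of duct cells, was not well above background on any of the 3 arrays. Markers of other cells were also measured, and their values are given beside the members below. In such dissected samples, more cells of a type and more RNA per cell cannot be told apart.

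Among the 10 genes, 9 had at least 1 probe well above background on ADM, 9 on duct and 10 on acinar. In the counts, a gene is represented by its brightest probe on average. Of these 10 probes, 3 were highest on ADM (Atp2b1, Atp2b4 and Orai1), 4 on duct (Itpr2, Itpr3, Atp2a3 and Stim1) and 3 on acinar (Itpr1, Atp2a2 and Atp2c2). The lowest level was on ADM for 4, on duct for 5 and on acinar for 1. Some of these places rest on gaps too small to give an order. Atp2c2 was counted lowest on ADM at −3.62 against −3.60 on duct, neither well above background. Itpr2 was highest on duct by 0.08 over acinar and Atp2a2 highest on acinar by 0.09 over ADM, both within the scanner's error. The plot of levels shows all 17 probes.

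**Figure D1:**
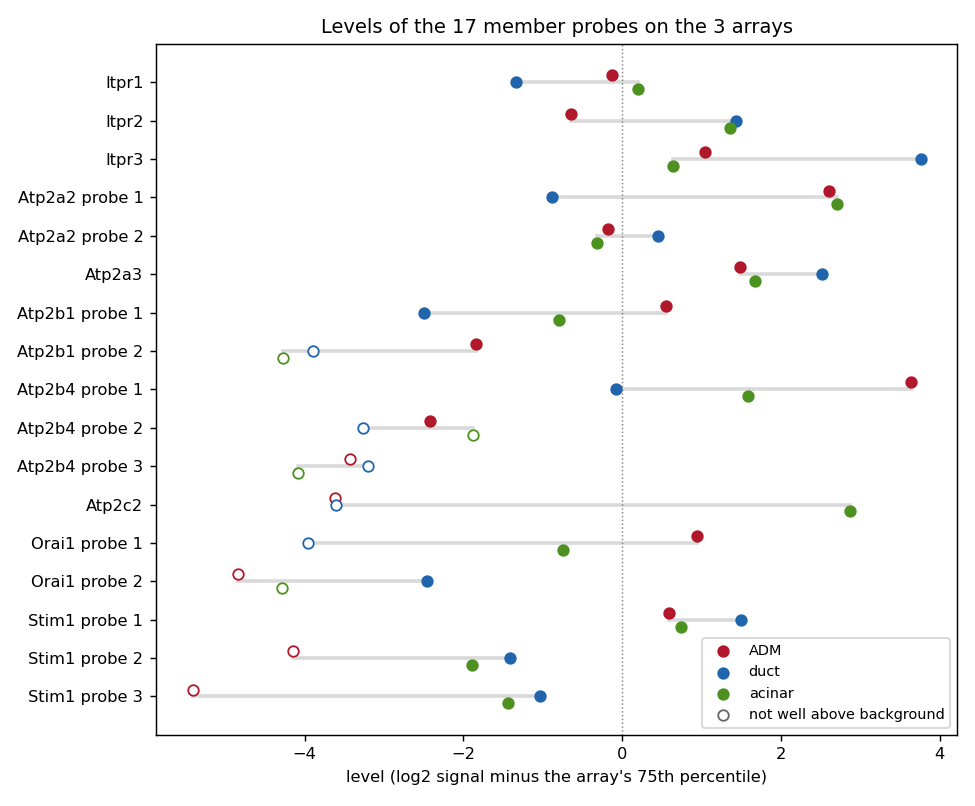
Levels of the 17 member probes, with log2 signal minus the array's 75th percentile on the x axis and 1 row per probe, for the ADM (red), duct (blue) and acinar (green) arrays. Open points were not well above background; Atp2c2 is a filled point only on acinar, at 2.87, and Itpr3 stands apart on duct, at 3.77.

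The promoters of Itpr3 and Atp2b4 are shown because, among members well above background on all 3 arrays, Itpr3 had the widest range of those highest on duct and Atp2b4 of those highest on ADM. They are the 250 bases before the annotated start, from RefSeq on GRCm38.p6, printed 5′ to 3′ on the strand of the gene. Capitals mark any match to the E-box CAGCTG, the E-box CATATG, the E-box CACCTG, the RBPJ core TGGGAA, the HNF1 half-site GTTAAT or the SOX core CATTGT, searched on both strands, and no 2 matches overlapped.
Itpr3, chr17:27057054-27057303, plus strand: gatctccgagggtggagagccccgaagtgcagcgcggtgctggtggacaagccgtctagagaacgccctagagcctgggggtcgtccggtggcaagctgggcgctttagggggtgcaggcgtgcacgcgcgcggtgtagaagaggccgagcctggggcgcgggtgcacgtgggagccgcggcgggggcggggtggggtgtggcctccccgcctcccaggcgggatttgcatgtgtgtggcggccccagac
Atp2b4, chr1:133753748-133753997, minus strand: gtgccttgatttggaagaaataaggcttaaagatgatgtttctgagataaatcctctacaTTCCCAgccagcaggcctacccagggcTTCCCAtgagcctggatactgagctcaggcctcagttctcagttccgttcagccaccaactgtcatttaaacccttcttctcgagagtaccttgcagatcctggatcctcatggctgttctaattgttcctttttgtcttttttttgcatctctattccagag
The Itpr3 window had a G and C share of 72.0% with 25 CpG pairs and held 0 matches. The Atp2b4 window had one of 45.6% with 2 CpG pairs and held 2 matches, both to TGGGAA on the opposite strand (read as TTCCCA), at 190 to 185 and 163 to 158 bases before the start. Of 32851 promoter windows of this length, 21.6% held TGGGAA, 17.2% CACCTG, 13.0% CAGCTG, 10.7% CATTGT, 6.43% GTTAAT and 3.46% CATATG. A match is a description of the letters and not a binding site.

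The 3 IP3 receptors, the release channels of the ER, differed in their order over the arrays. Itpr3, which together with Itpr2 carries the secretory calcium signal of mouse acinar cells, had a level of 1.05 on ADM, 3.77 on duct and 0.65 on acinar. Its probe was spotted repeatedly, and the SD over spots was 0.069 on ADM (8 spots), 0.023 on duct (10 spots) and 0.19 on acinar (10 spots). Itpr3 was thus high on duct only, 8.69-fold higher than on acinar, while ADM and acinar lay within 2-fold (difference 0.40). In ADM it was 6.57-fold lower than in duct (difference −2.72), and both differences with duct exceeded the spread between spots. Of 13820 genes compared between duct and acinar, 736 (5.33%) had a difference at least as high as that of Itpr3.

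Itpr2, the receptor with the highest IP3 affinity, had a level of −0.65 on ADM, 1.44 on duct and 1.36 on acinar. Duct and acinar differed by 0.08, which is within the scanner's error of 0.21, and ADM was the low array. In ADM the signal was 4.02-fold lower than in acinar (difference −2.01) and 4.25-fold lower than in duct (difference −2.09). Itpr1, the main receptor of neurons, had a level of −0.13 on ADM, −1.34 on duct and 0.20 on acinar. Here duct was the low array: Itpr1 was 2.90-fold lower in duct than in acinar and 2.31-fold higher in ADM than in duct, and ADM and acinar differed by −0.33. Each of these 2 receptors was read from 1 spot of 1 probe.

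Among the ER pumps, which return calcium to the store, Atp2a2 encodes SERCA2, the widely expressed pump of the ER, and Atp2a3 encodes SERCA3, found in blood, endothelial and secretory epithelial cells. The brighter Atp2a2 probe had a level of 2.61 on ADM, −0.89 on duct and 2.70 on acinar. By this probe Atp2a2 was 12.1-fold lower in duct than in acinar and 11.3-fold higher in ADM than in duct, with ADM and acinar at −0.09 from each other. The second Atp2a2 probe, also well above background on all 3 arrays, had a level of −0.18 on ADM, 0.45 on duct and −0.32 on acinar. It gave 0.77 for duct minus acinar and −0.63 for ADM minus duct, so the 2 probes opposed each other on duct and the direction of Atp2a2 there is not settled by these data. The difference between ADM and acinar was small by both probes (−0.09 and 0.14).

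Atp2a3 had a level of 1.49 on ADM, 2.52 on duct and 1.67 on acinar, so duct was the high array. It was 2.05-fold lower in ADM than in duct, close to the 2-fold threshold, and 1.81-fold higher in duct than in acinar. ADM and acinar differed by −0.18, within the scanner's error of 0.21.

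The plasma membrane pumps Atp2b1 and Atp2b4 encode PMCA1 and PMCA4, which push calcium out of the cell. By their brightest probes both were highest on ADM and lowest on duct. The brighter Atp2b1 probe had a level of 0.55 on ADM, −2.50 on duct and −0.80 on acinar, so ADM was 2.54-fold above acinar and 8.26-fold above duct, and duct was 3.25-fold below acinar. The second Atp2b1 probe was well above background on ADM only, at −1.85, with a difference of at least 1.43 for ADM minus duct and at least 0.20 for ADM minus acinar.

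The brightest Atp2b4 probe had a level of 3.63 on ADM, −0.07 on duct and 1.59 on acinar. For Atp2b4, ADM was 4.12-fold above acinar and 13.1-fold above duct, and duct was 3.17-fold below acinar. Of 14465 genes compared between ADM and duct, 348 (2.41%) had a difference at least as high. The other Atp2b4 probes were dim. The second was well above background on ADM alone, at −2.42, with a difference of at least 0.85 for ADM minus duct. Its acinar level was nominally higher than its ADM level, at −1.87, but not well above background. No difference could thus be bounded above 0 for ADM minus acinar by this probe. The last probe was not well above background on any array.

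Atp2c2 encodes SPCA2, a calcium and manganese pump of the Golgi and secretory pathway that is found in secretory epithelia. Its signal was 5.88 intensity units on ADM and 7.87 on duct, not well above background on either, and 257 on acinar. The corresponding levels were −3.62, −3.60 and 2.87. Atp2c2 was therefore at least 64.6-fold lower in ADM than in acinar and at least 70.6-fold lower in duct than in acinar, and ADM and duct were not compared because both were at background. Among 13620 genes compared between ADM and acinar, 6 had a difference at least as low (0.0441%), Atp2c2 included, and among 13820 between duct and acinar 70 did (0.507%). In mouse acinar cells Atp2c2 is known as a target of the transcription factor Bhlha15 (Mist1), whose probe had a level of 2.26 on ADM, 2.13 on duct and 4.84 on acinar, and the part of that difference in the Atp2c2 result was not tested. The related Golgi pump Atp2c1 went the other way, at 2.60 on ADM, 3.20 on duct and 0.90 on acinar, a difference of 1.69 for ADM minus acinar and 2.30 for duct minus acinar. Of 11 acinar markers, 10 were 2-fold or more lower in ADM than in acinar (median −2.44) and 11 in duct than in acinar (median −5.59), and their part in the Atp2c2 result was not tested.

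For store-operated entry, Orai1 forms the pore and Stim1 is the ER calcium sensor. The brighter Orai1 probe had a level of 0.94 on ADM, −3.95 on duct, where it was not well above background, and −0.74 on acinar. By this probe ADM was 3.21-fold above acinar and at least 18.6-fold above duct, and duct was at least 5.81-fold below acinar. The second Orai1 probe was well above background on duct only, at −2.45, and gave a difference of at least −0.70 for ADM minus duct, opposite to the brighter probe. Its difference for duct minus acinar could not be bounded away from 0. Orai1 was thus detected on all 3 arrays over its probes, and its order between ADM and duct depended on the probe.

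The brightest Stim1 probe, the only member probe annotated to a predicted transcript, had a level of 0.60 on ADM, 1.50 on duct and 0.74 on acinar, all within 2-fold. The other Stim1 probes were not well above background on ADM and had levels of −1.42 and −1.03 on duct and −1.89 and −1.44 on acinar. They gave Stim1 at least 2.39-fold and at least 3.28-fold lower in ADM than in acinar, and at least 3.33-fold and at least 4.35-fold lower in ADM than in duct, while duct minus acinar was 0.48 and 0.41. The dimmer probes thus placed ADM lowest, by at least −1.26 and −1.71 against acinar. For the brightest probe ADM minus acinar was −0.14, within the scanner's error of 0.21. That difference became 0.088 with normexp and 0.086 with median scaling, so its sign was not settled.

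**Figure D2:**
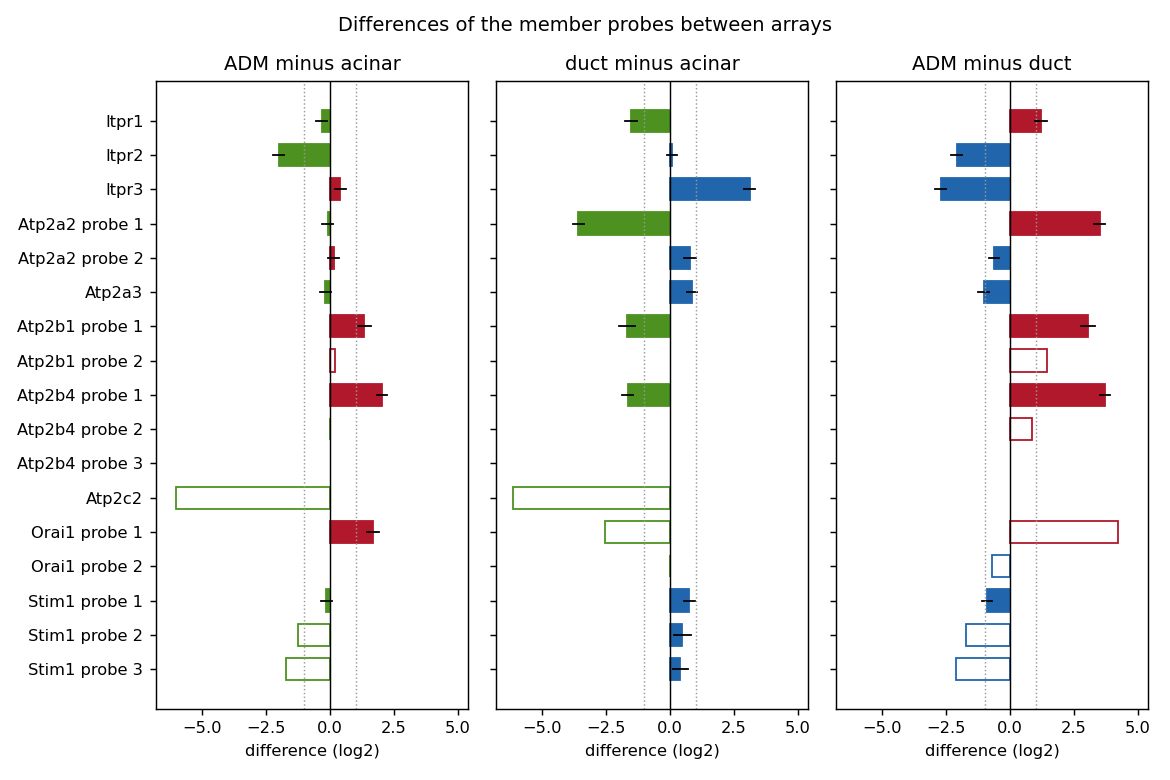
Differences of the member probes in log2 units (x axis) for ADM minus acinar, duct minus acinar and ADM minus duct, coloured by the array with the higher level. Open bars are bounds, black lines are the scanner's error, dotted lines mark 2-fold, and rows without a bar were not compared or could not be bounded away from 0; the brighter probes of Atp2b1, Atp2b4 and Orai1 lie right of 0 in both comparisons of ADM.

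Counted with 1 probe per gene, 3 of 10 members were above acinar by 2-fold or more in ADM (Atp2b1, Atp2b4 and Orai1), 2 were lower (Itpr2 and Atp2c2) and 5 lay within 2-fold, with a median of −0.12. Over all genes compared, 21.8% were at least 2-fold higher and 22.0% lower in ADM, 43.8% together, with a median of 0, so the members' share was near that background. With normexp background correction and an offset of 50, Itpr2 (−0.93), Atp2b1 (0.55) and Orai1 (0.86) lay within 2-fold, and Atp2b4 (2.11) and Atp2c2 (at least −2.84) did not. When all probes of a gene were averaged, 1 member was higher and 3 were lower, with Atp2b4 at 0.72, Orai1 at 0.56 and Stim1 at −2.12.

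In duct against acinar, 1 of 10 members was at least 2-fold higher (Itpr3) and 6 were lower (Itpr1, Atp2a2, Atp2b1, Atp2b4, Atp2c2 and Orai1), with a median of −1.60. Among all genes, 27.4% were higher and 24.6% lower, 52.0% together, with a median of 0 (3791 higher and 3394 lower, against 4724 and 2572 with median scaling). The members' share of lower genes stood above that background, but Atp2a2 was lower by its brighter probe only. The second Orai1 probe, well above background on duct but not on acinar, did not show Orai1 lower in duct. With median scaling, which moved the median of all genes to 0.28, 3 members were higher and 6 lower, as Atp2a3 (1.24) and Stim1 (1.15) passed 2-fold. When all probes of a gene were averaged the count was 1 higher and 3 lower, and with normexp 2 higher and 3 lower.

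In ADM against duct, 9 members were compared, of which 5 were at least 2-fold higher (Itpr1, Atp2a2, Atp2b1, Atp2b4 and Orai1) and 3 lower (Itpr2, Itpr3 and Atp2a3), with a median of 1.21. Among all genes, 21.6% were higher and 24.8% lower, 46.4% together, with a median of −0.05. The members' share of higher genes stood above that background, but Atp2a2 and Orai1 were higher by their brighter probes only, and Itpr1 lay within 2-fold with normexp (0.59). Their share of lower genes was near it, and Atp2a3 lay within 2-fold with normexp (−0.95), the 75th percentile over probes detected on all arrays (−0.95) and quantile normalization (−0.93), which left 2 members lower. Both comparisons with acinar share the acinar array, both with duct the duct array and both with ADM the ADM array, so the 3 sets of values are not independent of each other. Because the members were chosen with earlier results of these data known, their shares in all 3 comparisons only describe the list.

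Among markers of other cells, most macrophage markers were higher on ADM than on both other arrays, as were Atp2b1, Atp2b4 and Orai1 by their brightest probes. Of 12 macrophage markers, 10 were 2-fold or more higher in ADM than in acinar (median 2.47) and 9 in ADM than in duct (median 2.40). Their summed linear level was 1070 on ADM, 613 on duct and 1445 on acinar, of which the Itgam probe held most, and 325, 75.8 and 82.4 without it. Lymphocyte markers were higher in 4 of 6 compared with acinar and 4 of 7 compared with duct, with sums of 8.04, 4.08 and 4.06, the B cell marker Ms4a1 was not well above background on any array, and Cd79a, another, was so on ADM only (level −0.46), at least 1.59 above acinar and at least 2.78 above duct. Of 10 fibroblast markers, 9 were above acinar in ADM (sums 329, 320 and 78.9), but 8 lay within 2-fold between ADM and duct (median 0.06). Platelet markers summed to 19.8, 5.20 and 7.66, and without the brightest, Pf4, to 2.86, 2.15 and 4.44, with acinar highest. Ppbp and Gp9 were not well above background on any array. The part of these cells in the Atp2b1, Atp2b4 and Orai1 values was not tested.

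On duct, where Itpr3 was high, 10 of 10 compared duct markers were at least 2-fold higher than on acinar (median 3.24). Smooth muscle markers summed to 9.70 on ADM, 28.2 on duct and 8.38 on acinar, and without the brightest, Tagln, to 1.86, 9.82 and 5.54. Endothelial markers summed to 14.1, 21.0 and 14.8, and without the brightest, Kdr, to 5.35, 15.2 and 1.35. Of 4 compared nerve and Schwann cell markers, 3 were 2-fold or more higher in duct than in acinar and 3 lower in ADM than in duct: S100b, Sox10 and Ngfr, each well above background on duct only. Islet markers summed to 1166, 652 and 745, and all 7 were well above background on all 3 arrays. Tek and Lmod1 were not well above background on any array. The part of these cells in the Itpr3 value was not tested.

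Genes whose pattern was most like that of a member were sought by the Euclidean distance between the 3 levels, each centred on its own mean, over 9367 genes outside the lists that were well above background on all 3 arrays. Nearest to Atp2b4 were Ikzf1, a transcription factor of blood cells (distance 0.083), Slc35d1, a nucleotide sugar transporter (0.097), and Srgn, a proteoglycan of blood cell granules (0.15). Ikzf1 had levels of 1.78 on ADM, −1.91 on duct and −0.35 on acinar, and Srgn of 2.34, −1.56 and 0.28. Nearest to the brighter Atp2a2 probe were the kinase Dmpk (0.11), Ubald1 (0.12) and the lipase Lpl (0.16). Nearest to Itpr3 were Prkra (0.036), Zfp212 (0.044) and Kctd10 (0.051), with Kctd10 at 0.62 on ADM, 3.27 on duct and 0.17 on acinar. With only 3 arrays many genes lie near any pattern: 32 genes lay within 0.5 of Atp2b4, 32 of Atp2a2 and 83 of Itpr3.

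The rest of the pathway was read from 12 lists with 133 genes. In ADM against acinar 20 of 109 compared genes were at least 2-fold higher and 28 lower, in duct against acinar 32 of 110 were higher and 39 lower, and in ADM against duct 25 of 113 were higher and 28 lower. The corresponding shares were 18.3% and 25.7%, 29.1% and 35.5%, and 22.1% and 24.8%, beside the background shares above, and the medians were −0.12, −0.16 and −0.01.

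**Figure D3:**
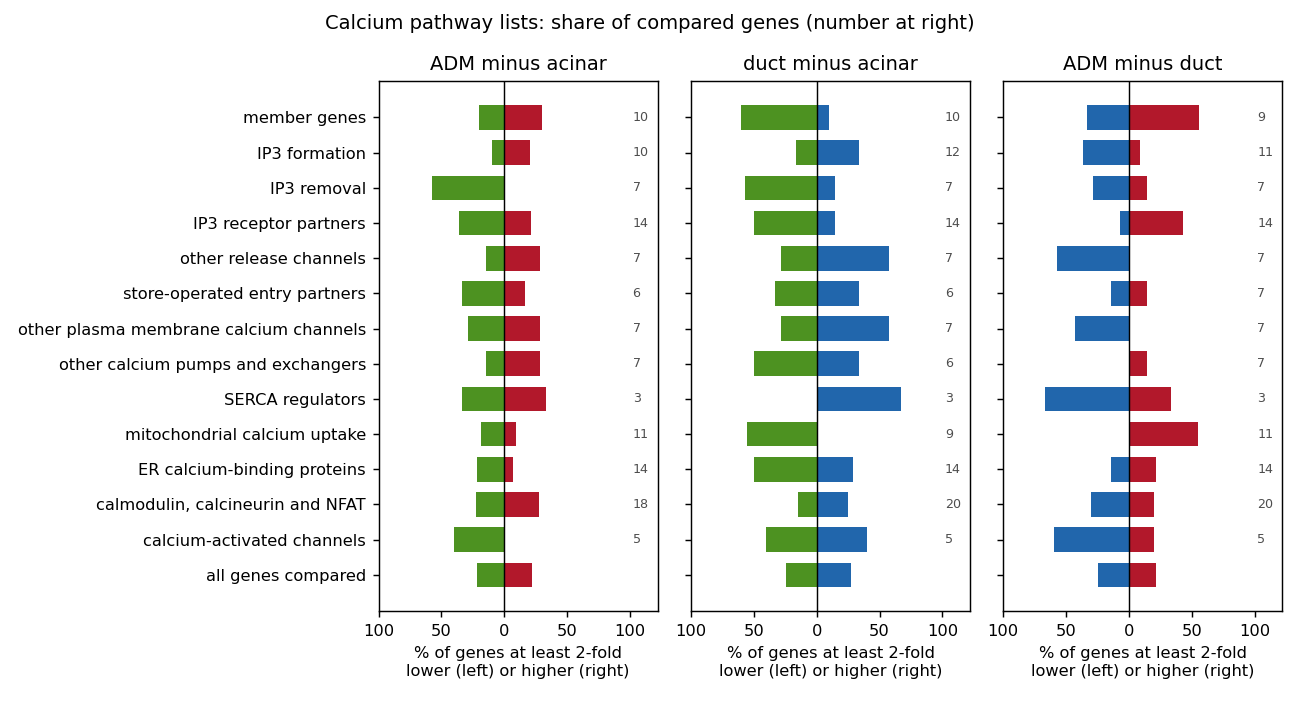
Share of the compared genes of each list that were at least 2-fold higher (right of 0) or lower (left of 0) on the first array of each comparison, in percent, coloured by the array with the higher level; the number of compared genes stands at the right and the bottom row holds all genes compared. IP3 removal has no bar to the right for ADM minus acinar, and mitochondrial calcium uptake none to the right for duct minus acinar.

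Upstream of the receptors stand the phospholipase C genes. Of the IP3 formation list, 4 of 12 genes were higher and 2 lower in duct than in acinar (median 0.25), and 1 of 11 was higher and 4 lower in ADM than in duct (median −0.45). Plcb3, a phospholipase activated by G proteins, had a level of 0.08 on ADM, 3.56 on duct and −0.01 on acinar, 11.8-fold higher in duct than in acinar. Plcd3 was at least 29.8-fold higher in duct than in acinar and 7.18-fold lower in ADM than in duct, and its second probe gave 4.26 and −3.23. In ADM against acinar 2 of 10 were higher and 1 lower (median 0.06), with Plcg2, a phospholipase of blood cells, 5.63-fold higher in ADM as a lower bound and Plcg1 at least 2.96-fold lower.

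Of 7 genes in the IP3 removal list, 4 were lower and 0 higher in ADM than in acinar (median −2.34). In duct against acinar, 4 were lower and 1 higher (median −1.40). The list also holds Inpp1, Impa1 and Impa2, which act on later inositol phosphates and not on IP3 itself. Inpp1 was among the lower genes in both comparisons (−2.34 and −1.89), and the higher gene in duct was Impa1 (1.20). The IP3 kinase Itpkc had a level of −2.39 on ADM, 0.91 on duct and 0.74 on acinar, 8.75-fold lower in ADM than in acinar. Inpp5a, the IP3 phosphatase, had a level of 1.33 on ADM, 2.91 on duct and 4.31 on acinar, 7.89-fold lower in ADM than in acinar and 2.99-fold lower in ADM than in duct. Itpka was at least 5.76-fold lower in ADM than in acinar, and Itpkb was 4.33-fold lower in duct than in acinar. In ADM against duct, 1 of 7 was higher and 2 lower (median −0.72).

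Of 14 partners of the IP3 receptors, 3 were higher and 5 lower in ADM than in acinar (median −0.49), and 2 were higher and 7 lower in duct than in acinar (median −0.98). Erp44, an ER redox protein that binds and inhibits Itpr1, was 5.73-fold lower in ADM and at least 15.8-fold lower in duct than in acinar. The antiapoptotic Bcl2 and Bcl2l1, which bind IP3 receptors, were in ADM 3.99-fold and 3.72-fold above acinar, and Bcl2l1 was 7.54-fold higher in duct than in acinar. In ADM against duct 6 of 14 were higher and 1 lower (median 0.76), with Itprid2 at 1.81, Ahcyl1 at 1.77 and Lrmp at 1.70.

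Of 7 genes in the list of other release channels, 4 were higher and 2 lower in duct than in acinar (median 1.21). In ADM against duct, 0 were higher and 4 lower (median −1.29). The list also holds Cd38 and Jpt2, which are not channels themselves. Pkd2, the polycystin channel of ER and cilia, had a level of 4.15 on ADM, 6.19 on duct and 2.59 on acinar. The lysosomal channel Mcoln1 had a level of −0.52 on ADM, 2.51 on duct and −0.19 on acinar, 6.47-fold higher in duct than in acinar. In ADM against acinar 2 of 7 were higher, Pkd2 (1.56) and Cd38 (1.15), and 1 was lower, Jpt2 (−1.72), with a median of −0.12.

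Partners of store-operated entry were divided, with 1 of 6 higher and 2 lower in ADM than in acinar (median −0.20) and 2 higher and 2 lower in duct than in acinar (median 0.23). Saraf, which inactivates the Orai1 and Stim1 channel, had a level of 2.74 on ADM, 2.12 on duct and 4.65 on acinar, 3.76-fold lower in ADM and 5.77-fold lower in duct than in acinar. Cracr2a, a regulator of the same channel, differed by −2.45 for ADM minus acinar and −2.81 for duct minus acinar. Orai3 was 1.49 higher in ADM and 1.80 higher in duct than in acinar, but its second probe gave at least −6.12 and −4.64. In ADM against duct, 1 of 7 was higher, Stimate (at least 1.04), and 1 lower, Trpc6 (at least −2.47), with a median of −0.31.

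Of 7 other plasma membrane calcium channels, 2 were higher and 2 lower in ADM than in acinar (median −0.10), 4 were higher and 2 lower in duct than in acinar (median 1.27), and 0 were higher and 3 lower in ADM than in duct (median −0.60). The epithelial calcium channel Trpv6 was 8.91-fold lower in ADM and 8.36-fold lower in duct than in acinar, and the mechanosensitive channel Piezo1 was in ADM 3.86-fold above acinar. Cacna1a was 3.33 higher in duct than in acinar, which its second probe did not bound away from 0.

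Among other pumps and exchangers, 2 of 7 were higher and 1 lower in ADM than in acinar (median −0.59), 2 of 6 higher and 3 lower in duct than in acinar (median −0.94), and 1 of 7 higher and 0 lower in ADM than in duct (median 0.32). Besides Atp2c1, Tmem165, a Golgi cation transporter, was 2.29-fold higher in ADM and 2.82-fold higher in duct than in acinar. The sodium-calcium exchanger Slc8a1 was in ADM at least 4.70-fold above duct, but its second probe gave at least −0.28. Of the SERCA regulators only 3 were compared, and Thbs4, a matrix and ER protein, was 45.4-fold higher in ADM and 6.04-fold higher in duct than in acinar. In that list the count was 1 higher and 1 lower in ADM against acinar (median −0.01), 2 and 0 in duct against acinar (median 1.35) and 1 and 2 in ADM against duct (median −1.36).

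For mitochondrial calcium uptake, 0 of 9 genes were higher and 5 lower in duct than in acinar (median −1.09), and 6 of 11 were higher and 0 lower in ADM than in duct (median 1.40). In ADM against acinar 1 was higher, 2 were lower and 8 of 11 lay within 2-fold (median 0.23). The uniporter pore Mcu differed by at least 3.06 for ADM minus duct and at least 1.83 for ADM minus acinar. Mcur1, a regulator of the uniporter, had a level of −0.23 on ADM, −2.67 on duct and 0.26 on acinar.

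Of 14 ER calcium-binding proteins, 1 was higher and 3 lower in ADM than in acinar (median −0.05), and 4 were higher and 7 lower in duct than in acinar (median −0.75). Nucb2, a calcium-binding protein of the secretory pathway, had a level of 1.19 on ADM, −0.34 on duct and 3.84 on acinar. Calu, a calumenin of the ER, was 7.61-fold higher in ADM and 7.80-fold higher in duct than in acinar. The chaperone Hspa5 was 3.25-fold lower in ADM than in acinar. In ADM against duct, 3 were higher and 2 lower (median 0.39), among them Rcn3 (−1.87) and Sdf4 (1.42).

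In the calmodulin, calcineurin and NFAT list, 5 of 18 genes were higher and 4 lower in ADM than in acinar (median −0.02), 5 of 20 higher and 3 lower in duct than in acinar (median −0.05), and 4 of 20 higher and 6 lower in ADM than in duct (median −0.41). The calcineurin subunit Ppp3cc differed by at least 2.43 for ADM minus acinar and at least 3.92 for duct minus acinar, and Ppp3cb was 4.66-fold lower in ADM than in acinar. The probes of Nfatc2 opposed each other for ADM minus acinar (at least −4.15 by the brighter probe, above 0 by the other) and those of Nfatc3 for duct minus acinar (−2.97 and 1.85). Of the calcium-activated channels, 0 of 5 were higher and 2 lower in ADM than in acinar (median −0.26), 2 higher and 2 lower in duct than in acinar (median 0.11), and 1 higher and 3 lower in ADM than in duct (median −1.20). The potassium channel Kcnn4 had a level of −1.90 on ADM, 2.26 on duct and −1.64 on acinar, and the chloride channel Ano1 of 2.44, 4.34 and 1.97, so both were high on duct as Itpr3 was.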

How the data were processed

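The members and all lists were chosen with earlier results of these data known. RNA was extracted from the dissected cells, amplified as cDNA and labelled with Cy3, per the labels' protocols. The deposited intensity of each spot was written by Agilent Feature Extraction 11.5.1.1 after background subtraction and spatial detrending within the array, without scaling between arrays, per the file headers. The deposited flags for outliers, saturation and signal well above background were used as given, and 0 spots were saturated. The authors' deposited log2 value table equalled log2 of that intensity less a constant for each array, within 0.001 for all 32905 matched probes; what those constants stand for is unstated.

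Controls and outlier spots were dropped, repeated spots averaged in log2, and the 75th percentile over 55664 probes subtracted. A probe was taken as well above background if every spot of it was so marked. A dim side took its own level or, if higher, the lowest level so marked on its array, and such differences are bounds. RefSeq accessions named 28020 probes through a GRCm38.p6 table, used for names and promoters only, as the array design is annotated on mm9. Calls were made at 2-fold. The code was tested on simulated data, which gives no error rate for these calls. With 1 array per group there was no test.

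The text names all members, up to 3 genes per list and comparison with the largest differences past 2-fold, the 3 genes nearest in pattern to the 3 members of widest range among those well above background on all arrays, and the brightest markers. Values of those list genes in a comparison where they ranked lower, Bhlha15, and the other single markers were added after their values were seen. Alternative background correction, scaling, normalization, filters, probe rules, fold threshold and source of values were tried. Normexp (limma 3.58.1, R 4.3.3) used the median spot signal, as the files used here hold no mean. Other steps used Python 3.11.15, numpy 2.4.6, pandas 2.3.3 and matplotlib 3.10.9. Some genes of the lists are not reported here.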

Additional observations from a re-analysis of the deposited data

How the results depend on the processing

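No paired analysis was possible because each group had 1 array, and no replicate could be left out. There were 10 settings other than the reported one, compared gene by gene, 1 of them (probes of curated transcripts only) chosen after seeing the data. Summed over them, 236 of 268 differences of members kept their side of 2-fold. That total includes settings that reused the same probe values. These were the deposited values (29 of 29), no filter or bound (29 of 29) and probes well above background on all arrays (24 of 24). Fewer differences were kept with normexp (20 of 29), the mean of probes (22 of 29) and the second-brightest probe (3 of 12). For ADM minus acinar, 5 members lay 2-fold apart, against 2 with normexp, 3 with probes well above background on all arrays and 1 with the second-brightest probe; the median of −0.12 became 0.26 with normexp, 0.11 with median scaling and 0.070 with the second-brightest probe. For duct minus acinar, 7 lay apart, against 4 when all probes of a gene were averaged and 0 of 3 compared with the second-brightest probe. Its median of −1.60 became −0.71 with normexp, −1.21 with median scaling, −0.73 with probes well above background on all arrays, −0.68 with the mean of probes and 0.48 with the second-brightest probe. For ADM minus duct, 8 lay apart, against 2 of 5 compared with the second-brightest probe. Its median of 1.21 became 0.59 with normexp, 1.05 with median scaling, 0.15 with probes well above background on all arrays, 0.60 with no filter or bound and −0.63 with the second-brightest probe. The second-brightest probe reversed Atp2a2 (0.77 for duct minus acinar, −0.63 for ADM minus duct) and Orai1 (−0.70 for ADM minus duct), and only the 5 members with several probes have one. Over all genes, normexp gave 1681 higher and 927 lower in ADM than in acinar, 2845 and 1494 in duct than in acinar, and 1472 and 2147 in ADM than in duct, against 2966 and 2996, 3791 and 3394, and 3120 and 3594 as reported. Median scaling put the median of all genes at 0.28 for duct minus acinar and −0.20 for ADM minus duct, against 0 and −0.05 as reported. The cause of these changes was not tested. Single arrays and signals near background limit every difference here.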
